A study of Rattus norvegicus with 16 samples.

Results

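The levels of 7 rat genes of leukocyte presence, leukocyte adhesion and antigen presentation were compared in heart RNA of untreated and diabetic rats. They are Ptprc (ENSRNOG00000000655), Cd68 (ENSRNOG00000037563), Cd74 (ENSRNOG00000018735), B2m (ENSRNOG00000017123), Icam1 (ENSRNOG00000020679), Vcam1 (ENSRNOG00000014333) and Ccl2 (ENSRNOG00000007159). They were taken by Ensembl identifier from the 23918 genes in the count files, and all 7 were among the 14175 genes with enough counts to be tested. The symbols come from the list of identifiers that defined the set. The files hold identifiers alone, and neither these names nor the tissue label could be checked against markers. All rats were adult male Wistar animals, and each library came from the heart of 1 rat after the blood had been drained. The controls (n = 4) received no agent. The D55 rats (n = 6) and the D100 rats (n = 6) received a single tail vein dose of streptozotocin, 55 or 100 mg/kg, under halothane anaesthesia, and hearts were collected after 4 days. Streptozotocin is a toxin of pancreatic beta cells that makes rats diabetic. The study's title concerns how the heart's transcripts reflect the severity of diabetes. Comparisons were D55 minus control, D100 minus control and D100 minus D55.

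Leukocytes enter a tissue in steps that these genes serve. Ccl2 is a secreted chemokine that draws monocytes, and Icam1 and Vcam1 are adhesion molecules on activated endothelium that hold rolling leukocytes through their integrins. Ptprc encodes CD45, the phosphatase on the surface of nearly all blood-derived nucleated cells, and Cd68 is a lysosomal glycoprotein abundant in macrophages. B2m is the light chain of MHC class I molecules, present on most cells. Cd74 is the invariant chain that guides MHC class II molecules through the cell and marks antigen-presenting cells. Transcription of several of these genes is induced by NF-kB and by interferons in inflamed tissue.

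RefSeq promoter windows (build GRCr8, 250 bases before to 50 bases after the annotated start) were at hand for 6 of the 7 genes, all but Ccl2. The 4 windows below belong to the genes called between the doses (Ptprc and Cd74) and to those in which an NF-kB or interferon motif was found (Cd74, B2m and Vcam1). They are given 5′ to 3′ on the gene's strand. Capitals mark matches, on either strand, to the kappaB motif, to the core of the interferon-stimulated response element (GAAA, any 2 bases, GAAA) and to the CCAAT box; no match of one motif overlapped a match of another.

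Ptprc (chr13:52259697-52259996, minus strand): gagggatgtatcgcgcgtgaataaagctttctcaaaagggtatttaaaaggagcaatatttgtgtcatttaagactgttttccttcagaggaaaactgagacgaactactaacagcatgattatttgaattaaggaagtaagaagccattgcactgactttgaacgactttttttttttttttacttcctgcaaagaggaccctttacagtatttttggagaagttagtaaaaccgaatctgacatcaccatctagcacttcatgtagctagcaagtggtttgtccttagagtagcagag
Cd74 (chr18:56526956-56527255, plus strand): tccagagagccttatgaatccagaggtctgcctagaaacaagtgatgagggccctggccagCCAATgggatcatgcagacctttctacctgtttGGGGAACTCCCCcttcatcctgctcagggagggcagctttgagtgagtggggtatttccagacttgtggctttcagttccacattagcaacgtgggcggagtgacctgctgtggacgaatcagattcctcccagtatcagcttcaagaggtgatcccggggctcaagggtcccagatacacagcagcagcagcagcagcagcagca
B2m (chr3:129549080-129549379, plus strand): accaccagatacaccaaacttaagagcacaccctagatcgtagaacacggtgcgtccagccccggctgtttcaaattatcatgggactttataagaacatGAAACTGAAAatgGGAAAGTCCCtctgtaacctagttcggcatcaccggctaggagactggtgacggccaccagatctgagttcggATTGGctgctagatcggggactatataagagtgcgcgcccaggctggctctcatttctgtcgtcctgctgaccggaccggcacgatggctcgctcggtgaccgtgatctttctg
Vcam1 (chr2:206742734-206743033, minus strand): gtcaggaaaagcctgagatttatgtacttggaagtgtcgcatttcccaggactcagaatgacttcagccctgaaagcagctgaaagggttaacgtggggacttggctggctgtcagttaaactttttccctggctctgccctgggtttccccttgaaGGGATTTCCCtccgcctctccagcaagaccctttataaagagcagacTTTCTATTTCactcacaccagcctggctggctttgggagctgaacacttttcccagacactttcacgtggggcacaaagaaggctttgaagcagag

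The kappaB motif was found in 3 of the 6 windows, those of Cd74 (3 overlapping matches, the first starting at -156), B2m (at -137) and Vcam1 (at -93). Of all 33469 rat windows of this length, 7.51% held it. The interferon core was found in B2m (at -150) and Vcam1 (at -46), against 3.92% of all windows. A CCAAT box was found in Cd68, Cd74, B2m and Icam1, against 37.5% of all windows. The Ptprc window held none of these letters, which says nothing of what binds there. Each motif was searched as a fixed pattern, so a site that differs by a letter is missed. A window without a match, as that of Icam1 for kappaB, may still hold such a site.

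Libraries held 26.2 to 48.3 M estimated counts in controls, 18.5 to 48.4 M in D55 and 4.685 to 25.6 M in D100. Levels are given as CPM (counts scaled to a fixed library total) after TMM scaling, a normalisation that corrects for differences in RNA composition. The smallest library, D100 F, is the least precise, since 3 counts correspond to 0.619 CPM there and to 0.0413 to 0.232 CPM in the others. The 10 most abundant genes of the series took 43.3 to 59.4% of the counts in controls, 30.1 to 54.7% in D55 and 53.4 to 69.0% in D100. The lowest shares belonged to D55 B (30.1%) and D55 E (30.4%), so differences that involve D55 are also given for fits without this pair. Heart tissue was measured in bulk, so fewer cells of a type and less RNA per cell cannot be told apart.

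The leukocyte gene Ptprc and the antigen presentation gene Cd74 moved in opposite directions between the doses. Ptprc was 1.73-fold higher and Cd74 1.96-fold lower in D100 than in D55, and these were the 2 members that passed an adjusted p of 0.05 in edgeR. In the same comparison 35.6% of all tested genes passed, 13.7% higher and 21.8% lower in D100, so 2 of 7 is not more than the background. DESeq2 called 4 members (Ptprc and Ccl2 higher, Cd74 and Cd68 lower, with adjusted p = 0.0353 for Ccl2 and 0.0346 for Cd68), where it called 46.6% of all genes. Limma-voom was run with quality weights, so libraries did not count equally, and it is meant in this form throughout. It called 3 members (Ptprc and Ccl2 higher, Cd74 lower), where it called 49.9% of all genes. Without D55 B and E edgeR called 0 members, and 0.888% of all genes. At an unadjusted p under 0.05 there were 5 members, against 51.4% of all genes. No member separated the dose groups without overlap, which 4.2% of all genes did. Over the 7 members the median size of the log2 difference, whatever its sign, was 0.72, against 0.56 over all genes tested.

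Against the controls, 0 of 7 members passed in edgeR at either dose. D100 minus control had 3 members at an unadjusted p under 0.05 (Ptprc, Cd74 and Vcam1), against 22.8% of all genes, while 4.38% passed after adjustment. DESeq2 called 1 member (Ptprc), where it called 10.1% of all genes, and limma-voom 5 (Ptprc, Vcam1 and Ccl2 higher, Cd68 and Cd74 lower), where limma-voom called 67.7% of all genes. D55 minus control had 0 members at an unadjusted p under 0.05, against 8.97% of all genes, and 0.0635% of all genes passed after adjustment. DESeq2 and limma-voom also called 0 members there, and 0.621% and 3.68% of all genes. Without D55 B and E edgeR again called 0 members, and 0.101% of all genes. The groups overlapped for every member in both comparisons, whereas 7.57% of all genes separated D100 from control and 2.55% separated D55 from control. D55 and D100 share the same 4 controls, so their differences from control are not independent.

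**Figure D1:**
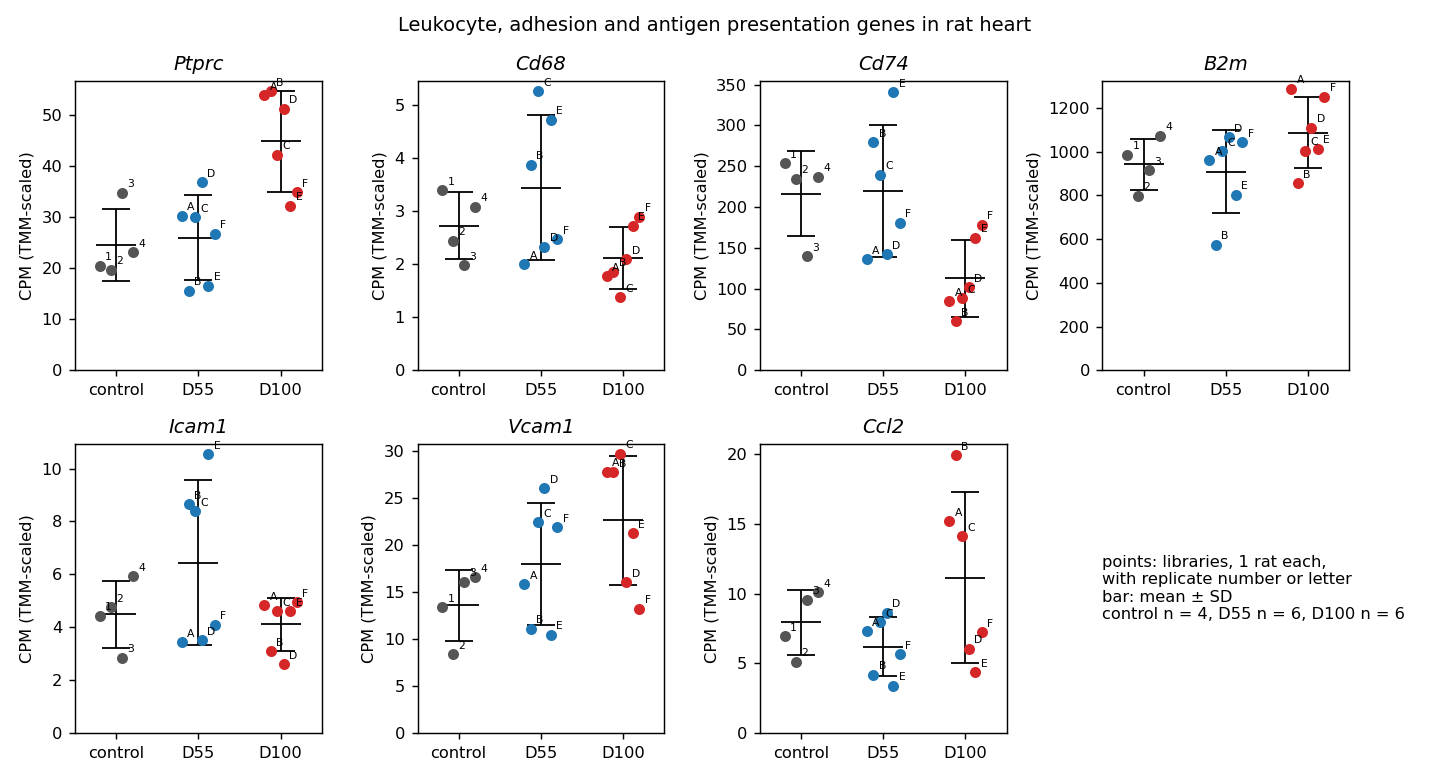
Level of each gene in CPM (linear axis from 0) in every library, by group, with the mean and SD as a bar and the replicate number or letter beside each point. Ptprc is highest in D100 A, B and D (51.3 to 54.7 CPM), and Cd74 is lowest in D100 A, B, C and D (59.8 to 102 CPM).

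Among the leukocyte markers, Ptprc stood at 20.5, 19.7, 34.8 and 23.2 CPM in control rats 1 to 4. In D55 it ran from 15.6 CPM through a median of 28.4 to 36.8, and in D100 from 32.3 through 46.7 to 54.7 CPM. All 6 D100 libraries lay above 3 of the 4 controls, and the overlap came from control 3. The difference of D100 from D55 was 0.79 on the log2 scale (SE 0.23, edgeR adjusted p = 0.0212). D100 minus control was slightly larger, 0.87, and missed the threshold (SE 0.26, edgeR adjusted p = 0.0650). D55 minus control was 0.08 (95% interval -0.45 to 0.61), and 0.34 without D55 B and E (adjusted p = 1). The estimated count of Ptprc was whole in 1 of 16 libraries, a sign that reads were divided between this gene and similar sequences, and its level is less sure than that of Cd68, Icam1, Vcam1 and Ccl2, whose estimates were whole in all 16.

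The Ptprc call between the doses rested on few libraries. It was lost without D55 B and E, at 0.54 (adjusted p = 0.156), where the D55 mean was 30.97 CPM ± 4.22 (SD, n = 4) instead of 26.01 ± 8.36 (SD, n = 6). It was also lost without D55 B, D55 E, D100 A or D100 B alone, where the difference was 0.68, 0.69, 0.73 and 0.73, with adjusted p values of 0.0582, 0.0572, 0.0513 and 0.0533. Without scaling factors it was 0.18 (adjusted p = 0.285). Dropping the scaling moved the median log2 difference of all genes from -0.03 to -0.65.

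Cd68, the macrophage gene, was scarce, with 14 to 296 counts per library. Controls stood at 3.39, 2.44, 1.98 and 3.08 CPM, D55 at 1.999 to 5.25 CPM with a median of 3.17, and D100 at 1.37 to 2.89 CPM with a median of 1.97. The D55 libraries fell apart into B, C and E, at 3.87 to 5.25 CPM, and A, D and F, at 1.999 to 2.47 CPM. D100 minus D55 was -0.72 (SE 0.28, edgeR adjusted p = 0.0570), and neither dose differed from control past the threshold (0.33 in D55, -0.38 in D100). Without D55 B and E, D100 minus D55 was -0.52 (adjusted p = 0.303) and D55 minus control 0.14. Over the 16 libraries Cd68 and Ptprc were negatively correlated (r = -0.704, a description over libraries that share their depth and scaling).

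Of the antigen presentation genes, Cd74 stood at 254, 235, 140 and 237 CPM in control rats 1 to 4. D55 libraries ran from 136 CPM through a median of 210.3 to 340.4 CPM, and D100 libraries from 59.8 through 95.2 to 178 CPM. D100 A, B, C and D, at 59.8 to 102 CPM, lay below every control and every D55 library. D100 E and F, at 162 and 178 CPM, overlapped both groups. D100 minus D55 was -0.97 (SE 0.29, edgeR adjusted p = 0.0229). D100 minus control was nearly the same, -0.95 (SE 0.31), but missed the threshold (edgeR adjusted p = 0.0964), and D55 minus control was 0.02 (95% interval -0.64 to 0.69), or -0.31 without D55 B and E (adjusted p = 1).

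The Cd74 call was lost without D55 B and E, at -0.64 (adjusted p = 0.203), 2 libraries that held 279 and 340.4 CPM. Leaving out D55 B, D55 E, D100 A, D100 B or D100 C alone also ended it, at -0.88, -0.79, -0.90, -0.83 and -0.91, with adjusted p values of 0.0593, 0.0619, 0.0553, 0.0553 and 0.0527. Unlike the call of Ptprc it was kept without scaling factors, at -1.56 (edgeR adjusted p = 0.0119). In that fit 49.5% of all genes passed and the median difference of all genes was -0.655. The contrast between the 2 genes there therefore includes a shift of all genes. With D55 B and E left out, D100 minus control passed the threshold for both genes. Cd74 was then at -0.95 (edgeR adjusted p = 0.0427) and Ptprc at 0.87 (edgeR adjusted p = 0.0137), in a fit where 10.8% of all genes passed.

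B2m, the class I light chain, had the smallest spread relative to its mean of the 7 genes in each group (12.3% in controls, 20.8% in D55, 15.0% in D100). Its controls stood at 987, 798, 915 and 1073 CPM. D55 libraries ran from 574 through a median of 983 to 1067 CPM, and D100 libraries from 857 through 1062 to 1288 CPM. The lowest value was that of D55 B, and 4 D55 libraries lay within 962 to 1067 CPM. D100 minus D55 was 0.26 (95% interval -0.08 to 0.59, edgeR adjusted p = 0.191), D100 minus control 0.20 and D55 minus control -0.05. The first was -0.30 without scaling factors and 0.093 without D55 B and E (adjusted p = 0.671), where D55 minus control was 0.11. B2m and Cd74 were weakly and negatively correlated over the 16 libraries (r = -0.391).

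**Figure D2:**
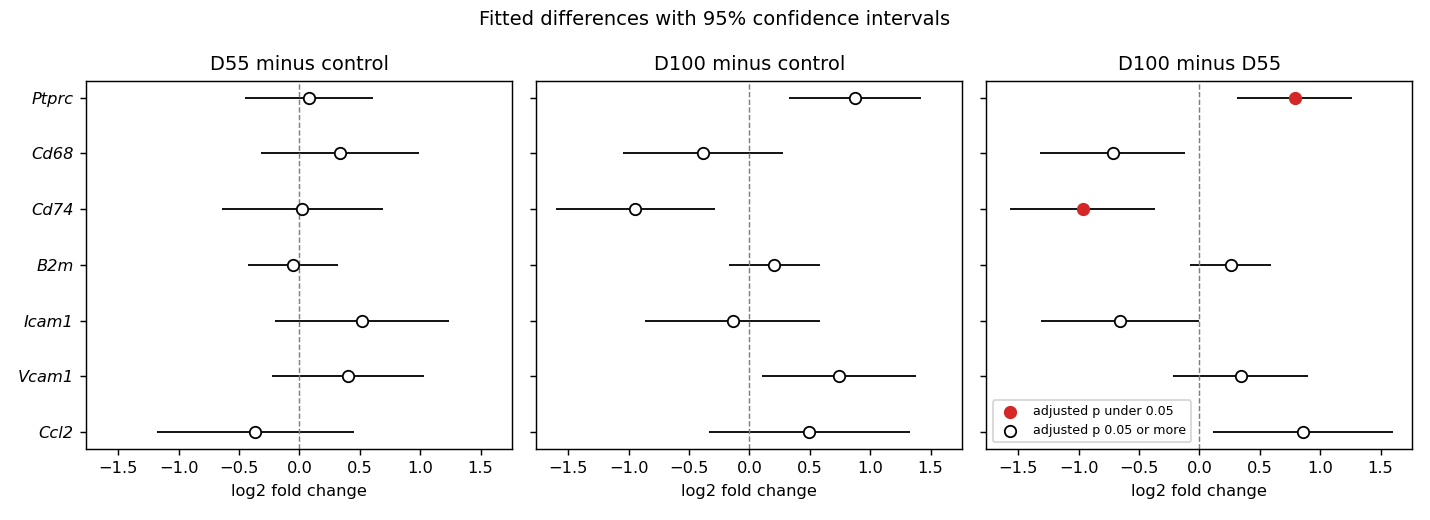
Log2 fold change of each gene (horizontal axis) in the 3 comparisons, with the 95% confidence interval as a line; filled points passed an adjusted p of 0.05 over all genes tested. Ptprc (0.79) and Cd74 (-0.97) in D100 minus D55 are the filled points, and the signs of B2m and Vcam1 in that panel turn without scaling factors.

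The adhesion genes did not move together. Icam1 stood at 4.43, 4.76, 2.85 and 5.93 CPM in controls, at 3.44 to 10.5 CPM in D55 (median 6.24) and at 2.59 to 4.95 CPM in D100 (median 4.61). D55 B, C and E held 8.39 to 10.5 CPM, above every other library of the series, and D55 A, D and F held 3.44 to 4.10 CPM. These are the same libraries that split for Cd68. They also split by the part of the counts that the most abundant genes took. It was 30.1 to 42.8% in D55 B, C and E and 50.6 to 54.7% in D55 A, D and F. Their TMM scaling factors were 1.309 to 1.503 and 0.957 to 1.096, in the same order. Whether this accounts for the split of Cd68 and Icam1 was not tested. D100 minus D55 was -0.66 (95% interval -1.31 to -0.003, edgeR adjusted p = 0.0959) and was -0.25 without D55 B and E (adjusted p = 0.600). D55 minus control was 0.52 (SE 0.34, edgeR adjusted p = 0.594), or 0.11 without D55 B and E (adjusted p = 1), and D100 minus control was -0.14.

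Vcam1 stood at 13.4, 8.35, 16.1 and 16.6 CPM in controls. D55 libraries ran from 10.5 through a median of 18.9 to 26.1 CPM, and D100 libraries from 13.2 through 24.5 to 29.7 CPM. The group means were 13.6 ± 3.76 (SD, n = 4), 17.95 ± 6.46 (SD, n = 6) and 22.6 ± 6.89 CPM (SD, n = 6), and neighbouring groups overlapped. Without D55 B and E the D55 mean was 21.5 CPM ± 4.24 (SD, n = 4), close to that of D100. The difference of D100 from D55 was 0.34 (edgeR adjusted p = 0.298), and 0.078 without the pair (adjusted p = 0.851). D100 minus control was 0.74 (SE 0.30, edgeR adjusted p = 0.165), while D55 minus control was 0.40 (SE 0.30, edgeR adjusted p = 0.624), or 0.66 without the pair (adjusted p = 1). D55 B and E had the lowest Vcam1 of their group, 11.1 and 10.5 CPM, and the 2 highest Icam1 values of the series.

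The chemokine gene Ccl2 stood at 6.94, 5.12, 9.56 and 10.1 CPM in controls and at 3.39 to 8.63 CPM in D55 (median 6.48). In D100 it had the widest relative spread of any member in any group, 4.37 to 19.9 CPM with a median of 10.7. D100 A, B and C, at 14.1 to 19.9 CPM, lay above every other library of the series, while D100 D, E and F, at 4.37 to 7.23 CPM, lay within the range of controls or below it. D100 minus D55 was 0.86 (SE 0.35, edgeR adjusted p = 0.0627), and 0.60 without D55 B and E (adjusted p = 0.316). D100 minus control was 0.50 (edgeR adjusted p = 0.442), which was -0.035 without scaling factors, and D55 minus control was -0.36 (edgeR adjusted p = 0.722), or -0.11 without D55 B and E.

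A ratio of 2 genes' counts within a library does not depend on how libraries are scaled. These ratios were chosen after the levels were seen and are given with no test. Cd74 counted 12.4, 11.9, 4.02 and 10.3 times Ptprc in controls 1 to 4. The ratio was 3.85 to 20.5 in D55 (median 7.38) and 1.09 to 5.11 in D100 (median 2.04). D100 A, B, C and D, at 1.09 to 2.10, lay below every library of the other groups, and D100 E and F, at 5.03 and 5.11, did not. On the log2 scale the ratio averaged 3.14 ± 0.76 (SD, n = 4), 3.07 ± 1 (SD, n = 6) and 1.25 ± 0.91 (SD, n = 6). Cd68 over Ptprc was 0.0568 to 0.165 in controls (median 0.128), 0.0630 to 0.284 in D55 (median 0.134) and 0.0324 to 0.0841 in D100 (median 0.0373), so its median was lowest in D100. Both ratios have Ptprc as their denominator, so they are not independent of each other.

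**Figure D3:**
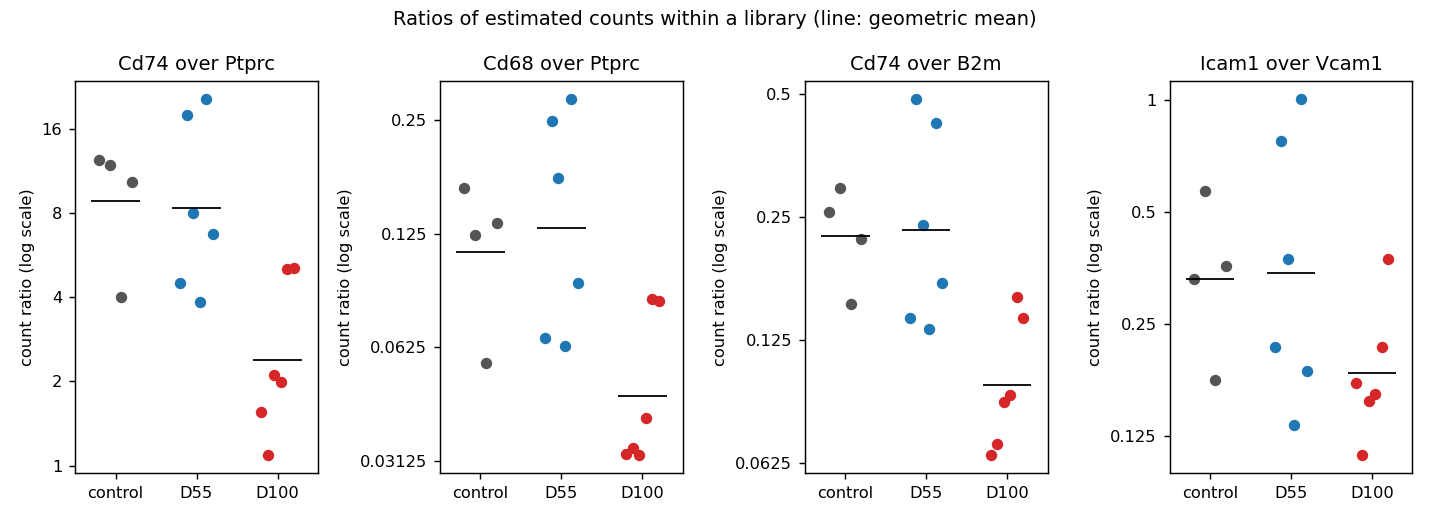
Ratios of estimated counts of 2 genes within each library (log axis, base 2), by group, with the geometric mean as a line. Cd74 over Ptprc has a median of 11.1 in controls, 7.38 in D55 and 2.04 in D100, and D100 E and F reach into the range of the other groups.

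Across libraries the 7 genes fell into a pair of sets. Cd68, Cd74 and Icam1 varied together, and so did Ptprc, B2m, Vcam1 and Ccl2. Over the 16 libraries all 9 pairs within a set had a positive Pearson correlation of log2 CPM (0.409 to 0.85) and all 12 pairs between sets a negative one (-0.928 to -0.33). The sets were drawn from these correlations, and all points share depth and scaling, so this is a description. With group means subtracted the signs were the same in all 21 pairs, at 0.261 to 0.831 within and -0.852 to -0.111 between. The sets also divided the members by the sign of their correlation with the part of the counts that the most abundant genes took. That correlation was -0.915 to -0.783 for Cd68, Cd74 and Icam1, and 0.612 to 0.922 for the others. Of all 14175 genes tested, 48.7% had a positive r with that part, and the median size of r was 0.754. Such a division was therefore not particular to these members. Signs of pairs were not counted for all genes. The strongest positive pair was Cd68 and Cd74 (r = 0.85), and the strongest negative one Ptprc and Cd74 (r = -0.928). Among all 14174 other tested genes, Cd74 was number 526 by likeness to Cd68, and Cd68 was number 2210 by likeness to Cd74. Ptprc was number 13635 by likeness to Cd74, and Cd74 was number 13893 by likeness to Ptprc.

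The gene most like Cd74 over the 16 libraries was ENSRNOG00000016135.7 (r = 0.988) and that most like Ptprc was ENSRNOG00000039560.4 (r = 0.979). They were sought among 8653 genes averaging 5 CPM or more, and no source used here names them. Such likeness was common: 926 genes had r over 0.9 with Cd74 and 723 with Ptprc, against 19 with Ccl2, 11 with Cd68, 6 with Icam1 and 0 with B2m or Vcam1.

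The share of counts taken by the 10 most abundant genes moved with the members. The TMM factor, which scales these levels, was 1.503 in D55 B (lowest share) and 0.5644 in D100 B (highest share). The scaling therefore enters every correlation with the share. Without scaling factors Ptprc was 23.5 CPM in D55 B and 30.9 in D100 B, against 15.6 and 54.7 with them. Cd74 was 420 and 33.8 CPM without them, against 279 and 59.8. Correlations of unscaled levels with the share were not tested. The permutations over 16 libraries shuffled libraries across groups, and the share differs between groups. Their p values therefore also take in differences between groups. Cd74 fell with this share over the 16 libraries (Pearson's r = -0.915, Spearman's rho = -0.915, permutation p = 2e-05 for either, the smallest these permutations can give, adjusted over the 7 genes 0.00014 and 7e-05). Ptprc rose with it (r = 0.922, permutation p = 4e-05, adjusted 0.00014; rho = 0.932, permutation p = 2e-05, adjusted 7e-05). Without D55 B and E, the libraries farthest from the median share, r was -0.931 for Cd74 and 0.876 for Ptprc. Icam1 (-0.783) and Cd68 (-0.83) had negative and Ccl2 (0.781), Vcam1 (0.723) and B2m (0.612) positive correlations, with permutation p values of 0.00016 to 0.0174 and 0.000373 to 0.0174 after adjustment. That of B2m rested on D55 B and E, without which it was 0.185. Their rho values were -0.624, -0.847, 0.691, 0.715 and 0.485, in the same order, with permutation p values of 8e-05 to 0.0578, the last for B2m (adjusted 0.0578).

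Within the 6 D100 libraries Cd74 had r = -0.998 with the share (exact permutation p = 0.00556, adjusted 0.0389; rho = -0.943, exact permutation p = 0.0167, adjusted 0.117), and r = -0.99 without D100 E and F. Within the 6 D55 libraries it was -0.925 (exact permutation p = 0.0222, adjusted 0.0661; rho = -0.771, exact permutation p = 0.103, adjusted 0.144), and -0.804 without D55 B and E. For Ptprc the values were 0.865 in D100 (exact permutation p = 0.0556, adjusted 0.0972) and 0.921 in D55 (exact permutation p = 0.0472, adjusted 0.0661), with rho of 0.771 and 0.83 (exact permutation p = 0.103 and 0.0583, adjusted 0.144 for either). The r values were 0.33 and 0.303 without the 2 libraries farthest from the median, on which the Ptprc relation within a group therefore rested. The controls were too few for a correlation. Over all 14175 genes and the 16 libraries the median size of r, whatever its sign, was 0.754. A more negative r than that of Cd74 was held by 11.5% of all genes, and a more positive one than that of Ptprc by 8.46%. By size alone, 20.8% of genes exceeded Cd74 and 18.9% Ptprc. For the other members this was 39.4% (Cd68) to 63.3% (B2m). Correlations within a group were not computed for all genes, so those values have no such background.

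**Figure D4:**
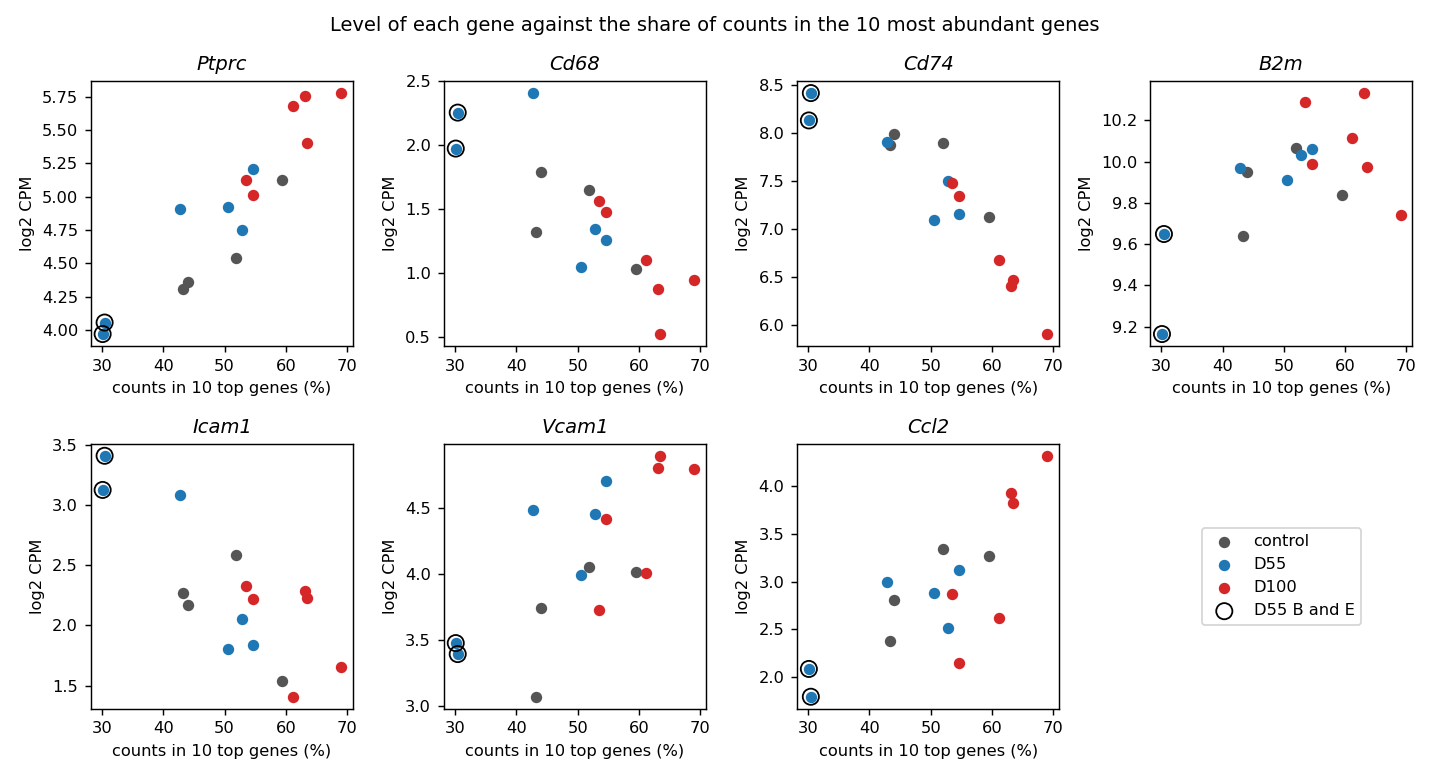
Log2 CPM of each gene (vertical axis) against the share of a library's counts in the 10 most abundant genes (horizontal axis, percent), with groups in colour and D55 B and E circled. Cd74 falls along the whole range (r = -0.915) and Ptprc rises (r = 0.922) over the 16 libraries.

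With this share as a covariate, D100 minus D55 was 0.057 for Ptprc (edgeR adjusted p = 0.905) and -0.030 for Cd74 (edgeR adjusted p = 0.966), and 0 of 7 members passed, where 0.289% of all genes did. Against the controls 0 of 7 members passed with the covariate in either dose group, where 0.374% of all genes did in D55 and 9.93% in D100. In D100 minus D55 the differences of Cd68, Icam1, Vcam1 and Ccl2 changed sign with the covariate, to 0.013, 0.34, -0.40 and -0.18, none past the threshold. The share is itself higher in D100 (60.8% ± 5.90, SD, n = 6) than in D55 (43.6% ± 11.1, SD, n = 6), so dose and share are partly confounded in these libraries and their parts cannot be told apart by this fit.

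**Figure D5:**
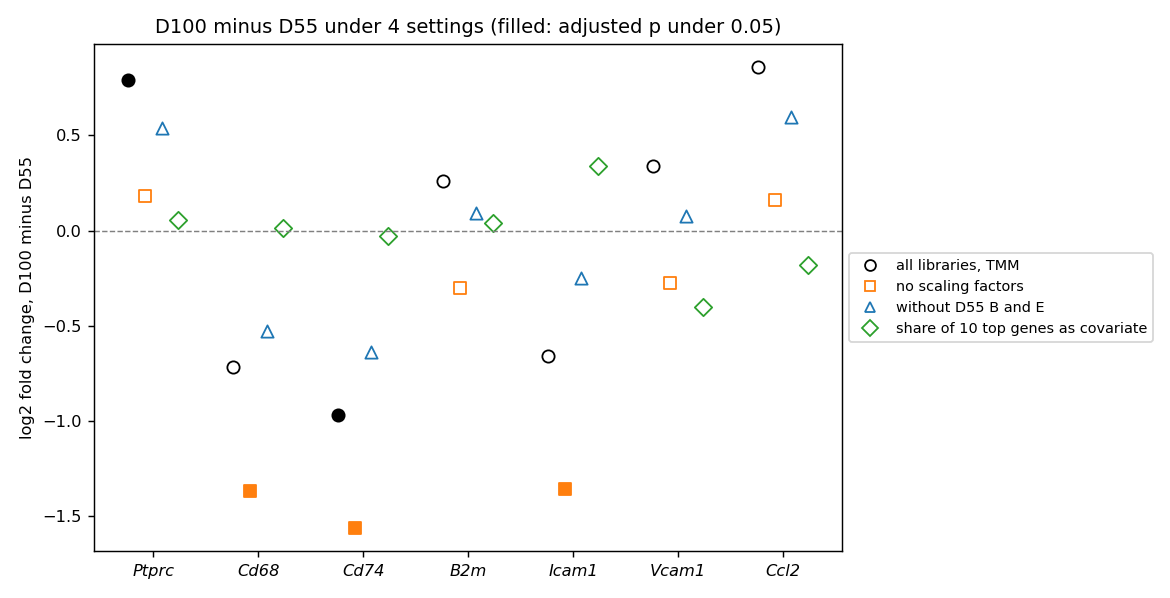
Log2 fold change of D100 minus D55 for each gene under 4 settings, with filled symbols where the adjusted p was under 0.05. Ptprc goes from 0.79 to 0.54 without D55 B and E and to 0.057 with the covariate, and Cd74 from -0.97 to -0.64 and -0.030. Without scaling factors B2m and Vcam1 lie below 0 and Cd68, Cd74 and Icam1 pass the threshold. In that setting 49.5% of all genes passed, and the median difference of all genes was -0.655.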

How the data were processed

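RNA of 16 rat hearts was sequenced from polyadenylated RNA with a stranded Illumina kit, per the labels. The authors deposited estimated counts per gene, which the submitters' processing notes tie to kallisto 0.43.1 and the rat build Rnor_6.0; no source used here gives the annotation release or strand setting. Kallisto divides reads shared between transcripts, so estimates need not be whole (tolerance used here: 0.01, judged below 10000).

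Estimates were rounded and analysed in R 4.3.3 with edgeR 4.0.16 (filterByExpr, TMM, glmQLFit and glmQLFTest) over all 16 libraries with 1 coefficient per group. P-values were adjusted by Benjamini-Hochberg over the 14175 genes tested, with a threshold of 0.05. The code was tested on simulated counts. Log2 CPM used a prior count of 2. Correlations had 100000 permutations, or all orders for 6 libraries. Between libraries of the same group chi-square was at least 12 per degree of freedom, so none repeated another of its group. Of 23918 identifiers 0 matched the RefSeq table of 47357 rows, so 14 pathway and marker lists could not be used and 0 were tested. All 7 members were named whatever their values. The members, lists and alternatives were chosen with earlier results of these data known. Alternatives included the tests of DESeq2 1.42.0 and limma 3.58.1 (voom with quality weights for the libraries).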

Additional observations from a re-analysis of the deposited data

Results flagged for a closer look

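Cd74 in control 3, at 139.7 CPM, stood apart from the other controls, which held 235 to 254 CPM, a gap wide for the range of the 4. This was 1 flag among 21 combinations of gene and group, and chance flags about 1 in 20. Control 3 also had the highest Ptprc of the controls (34.8 CPM) and the highest share taken by the 10 most abundant genes (59.4%, against 43.3 to 51.9% in the others); the part of that share in the Cd74 value was not tested. Without control 3, Cd74 was -1.11 in D100 minus control and still missed the threshold (edgeR adjusted p = 0.0576), while Ptprc passed it (1.09, edgeR adjusted p = 0.0342).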

How the results depend on the processing

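Leaving out 1 library at a time gave 0 to 1 members called in D100 minus control, 0 to 5 in D100 minus D55 and 0 in D55 minus control; over all genes the counts were 180 to 1086, 1172 to 6745 and 0 to 15. Ptprc kept its sign in all 28 alternatives of D100 minus D55 and its call in 19, and so did Cd74. In D100 minus control both kept their sign in all 27 alternatives; Ptprc was called in 9 and Cd74 in 3. Over those alternatives the adjusted p of D100 minus D55 was 0.00164 to 0.905 for Ptprc and 0.0019 to 0.966 for Cd74.

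Called members in D100 minus control are given with the share of all genes called in brackets. They were 1 with at least 5 CPM in 4 libraries (6.61%), 1 in DESeq2 (10.1%) and 5 in limma-voom (67.7%). With only the groups compared they were 1 (6.21%), without D55 B and E 2 (10.8%) and without D100 F too 3 (19.8%). In D100 minus D55 they were 4 in DESeq2 (46.6%). They were 0 without D55 B and E (0.888%), without D100 F too (2.48%), and with the top-gene share as covariate (0.289%). All genes called in D55 minus control, 9 at first, were 5 without scaling factors, 88 in DESeq2, 522 in limma-voom, 1 with only the groups compared, 14 without D55 B and E, 16 without D100 F too and 53 with the covariate. In D100 minus control, 621 at first, they were 1172 without scaling factors, 409 with no filter, 1438 in DESeq2, 9594 in limma-voom, 1493 without D55 B and E, 2731 without D100 F too and 1407 with the covariate. In D100 minus D55, 5041 at first, they were 3018 with only the groups compared, 123 without D55 B and E, 342 without D100 F too and 41 with the covariate. Apart from the smaller sets of libraries or genes, the cause of these shifts was not tested.

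Signs that turned belonged to differences that passed in neither setting. In D55 minus control, B2m was 0.086 without scaling factors, 0.11 in limma-voom, 0.11 without D55 B and E (0.11 without D100 F too), 0.015 with the covariate and -0.13 to 0.054 leaving out 1 library. Cd74 was -0.51 in limma-voom, -0.31 without D55 B and E (-0.31 without D100 F too), -0.36 with the covariate and -0.14 to 0.13 leaving out 1 library, and Ptprc -0.042 to 0.30. Limma-voom gave -0.26 for Cd68 and -0.13 for Icam1. In D100 minus control, B2m was -0.22 and Ccl2 -0.035 without scaling factors, Cd68 0.052, Icam1 0.43 and Ccl2 -0.21 with the covariate, and Icam1 -0.30 to 0.025 leaving out 1 library. In D100 minus D55, B2m was -0.30 and Vcam1 -0.27 without scaling factors, and with the covariate Cd68 was 0.013, Icam1 0.34, Vcam1 -0.40 and Ccl2 -0.18.

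D55 and D100 libraries share the letters A to F, which the labels do not tie to a common source. Deviations from the group means of same-letter libraries correlated at -0.501 to 0.628 across genes, and only E was most like its own letter, so the letters were not treated as pairs. With the letter as a replicate block 0 members and 0 of all genes passed in D100 minus D55; Ptprc was at 0.82 (edgeR adjusted p = 0.0530) and Cd74 at -0.99 (edgeR adjusted p = 0.0537). Depth limits Cd68 and Icam1 most in D100 F, with 14 and 24 counts; Cd68 was not tested under the filter of 5 CPM in 4 libraries.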

Other observations

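Ratios between members of like role also differed between libraries of a group. Icam1 over Vcam1, the ratio of the 2 adhesion genes' counts, was 0.177 to 0.569 in controls and 0.111 to 0.375 in D100. In D55 it ran from 0.134 to 1.01, with D55 E (1.01) and D55 B (0.780) above every other library. Cd74 over B2m, the invariant chain of class II over the light chain of class I, was 0.153 to 0.294 in controls, 0.133 to 0.487 in D55 and 0.0655 to 0.16 in D100. These ratios were chosen after the levels were seen and were not tested.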
